A study of Homo sapiens with 6 samples.

Results

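The kinesin genes of CUTLL1 cells were compared between 3 libraries with an shRNA against AURKB and 3 with a control shRNA. Members were the rows of the deposited gene table whose name was KIF followed by a number and an optional letter A, B or C, or was KIFC1, KIFC2 or KIFC3. These were 42 of 50868 genes. They were split by textbook role into 15 mitotic kinesins, 17 transport kinesins and 10 others, which serve cilia or are less well described. CUTLL1 is a human cell line of T-cell acute lymphoblastic leukaemia. In all 6 cultures the cells were infected with a lentivirus that carried an shRNA and were selected with puromycin. RNA was sequenced after 48 h, and the series' design text calls the samples biological replicates. The arms are named shAURKB, with a hairpin against the mRNA of the mitotic kinase Aurora B, and shGFP, the control, which by its title has a hairpin against GFP. The number of hairpins per target is not given in the sources used here, so effects of 1 hairpin on other mRNAs cannot be told apart from those of Aurora B loss.

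Kinesins are motor proteins that burn ATP to walk along microtubules or to take them apart. In dividing cells, mitotic kinesins push spindle poles apart, move chromosomes to the middle of the spindle and build the central spindle where the cell is cut. Aurora B phosphorylates several of them, among them the depolymerase encoded by KIF2C and the centralspindlin motor encoded by KIF23. Transport kinesins carry vesicles, mitochondria and signalling complexes through the cytoplasm in both dividing and resting cells.

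The libraries held 10154187 to 11922979 counts. AURKB mRNA was 101 ± 5.1 CPM (SD, n = 3) in shGFP and 39.9 ± 3.93 CPM (SD, n = 3) in shAURKB, where CPM is the count scaled to library size with trimmed means (TMM). Of 13 listed T-cell leukaemia markers 11 passed the low-count filter, and PTCRA and CD8B were near 0. The 13 summed to 2704 to 2811 CPM in shGFP and 3151 to 3279 CPM in shAURKB, but did not move together. At an edgeR adjusted p below 0.05, 5 of the 11 were higher and 1 lower, 54.5% in all against 23.3% of all tested genes. The lower marker, CD4, went from 35.2 to 13 CPM on average (log2 fold change -1.43 ± 0.08 SE, edgeR adjusted p = 1.61e-04). The B-cell and myeloid genes MS4A1, LYZ and MPO had no read in any library. One control library stood apart: in shGFP replicate 1, 10 fibroblast and epithelial markers (the list without SPARC and FN1) summed to 26.7 CPM, against 0.664 to 1.31 CPM in the other 5. That sum came from COL1A2, KRT8, KRT18 and KRT19 (185, 33, 39 and 23 reads), whereas DCN, LUM and COL3A1 gave 0 in every library and CDH1, COL1A1 and EPCAM were no higher there than elsewhere. SPARC and FN1 had reads in every library. With them the list summed to 36 CPM in shGFP replicate 1 and to 6.48 to 8.54 CPM in the other 5.

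Of the 42 kinesin genes, 30 passed the low-count filter and were tested. With AURKB shRNA 4 were higher and 5 lower at an adjusted p below 0.05, against 12.5% higher, 10.9% lower and 23.3% in either direction among all 14818 tested genes. Of 14 tested mitotic kinesins, 1 rose, 1 fell and 12 did not pass. Of 12 tested transport kinesins, 3 rose, 4 fell and 5 did not pass, and none of the 4 tested others passed. The libraries of the arms did not overlap in 7 mitotic and 7 transport members and in KIF7, where 42.6% of all tested genes had no overlap. The median log2 fold change was -0.09 over the mitotic and 0.16 over the transport members, against 0.00 over all tested genes, and the median size regardless of sign was 0.12 and 0.33, against 0.21. The transport median was 0.05 without shGFP replicate 2 and 0.10 with upper-quartile scaling, which also moved the mitotic median to -0.14. KIF21A and KIFC3, at 0.18 and 0.42 on few reads, both lay above the transport median and so raised it. These counts and medians describe the classes. Whether the classes differ was not tested, since genes are not replicates. In bulk RNA, a lower share of cells in mitosis and less mRNA per cell cannot be told apart.

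**Figure D1:**
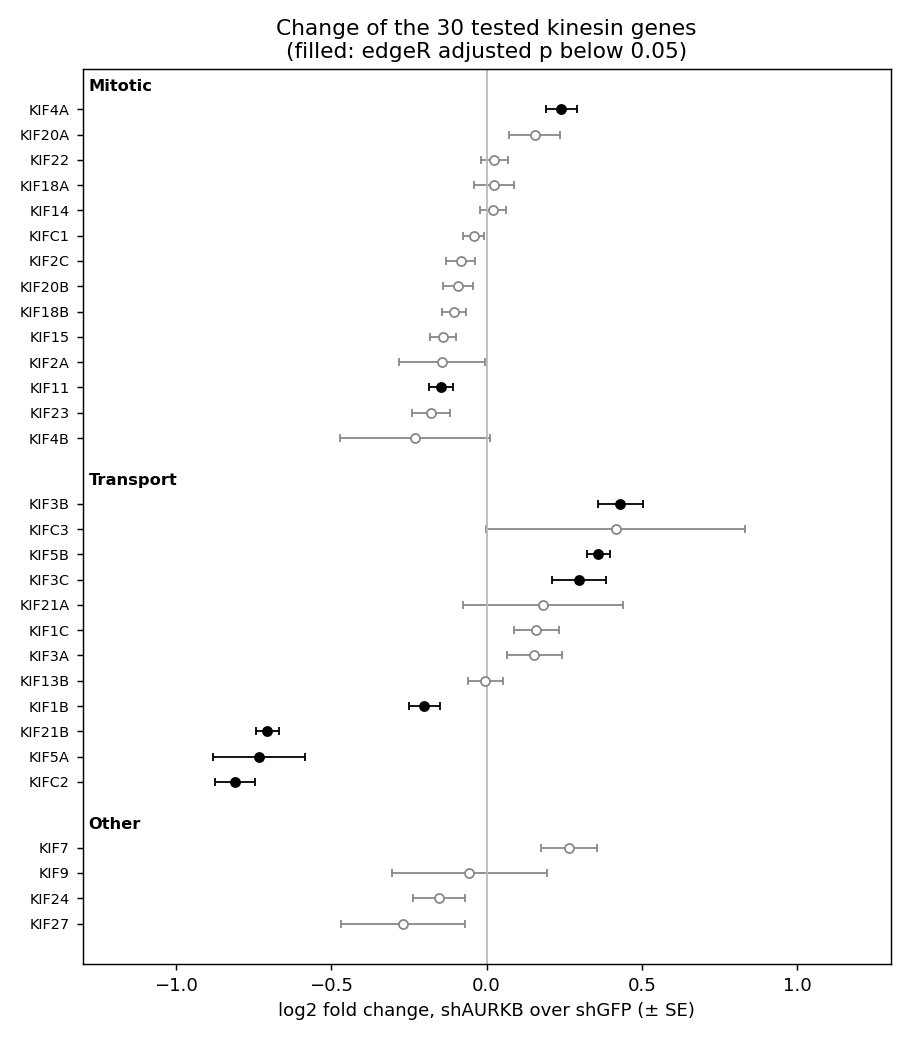
Log2 fold change with its standard error (horizontal axis) for each of the 30 tested kinesin genes (vertical axis), by class, with filled points for an edgeR adjusted p below 0.05. The 14 mitotic genes lie between -0.23 and 0.24, and the 12 transport genes between -0.81 and 0.43.

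Levels per length were compared on the deposited FPKM scale, which corrects counts for gene length and library depth. Mitotic kinesins made up 76.6% to 77.6% of the summed kinesin FPKM in the controls and 76.5% to 77.2% in shAURKB. Of the 10 most abundant kinesin mRNAs in the controls, 8 were mitotic. KIF11 was the highest at 78.5 ± 2.89 FPKM (SD, n = 3), followed by KIFC1 at 54.6 ± 0.441 and KIF2C at 48.9 ± 2.4 FPKM. KIF5B (36.6 ± 1.19 FPKM) and KIF21B (31 ± 1.13 FPKM) were the transport kinesins among these 10. Along this order, 10 of 29 neighbouring pairs overlapped between control libraries, such as KIF18B with KIF5B, KIF22 with KIF21B and KIF15 with KIF2A. At the low end, KIF4B, KIF21A and KIFC3 averaged 0.254, 0.159 and 0.0499 FPKM in the controls.

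**Figure D2:**
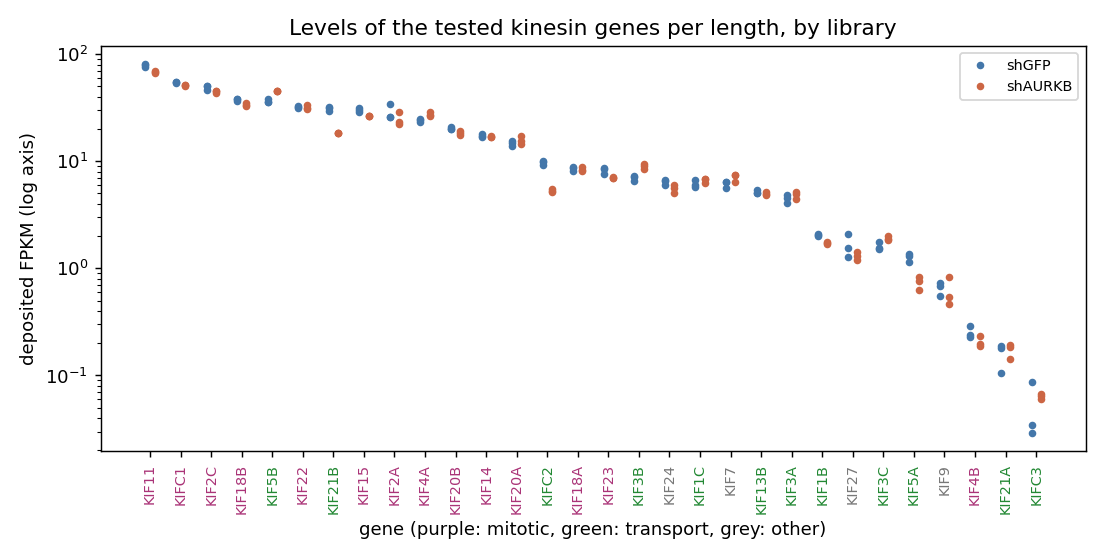
Deposited FPKM (vertical log axis) of the 30 tested kinesin genes in each library, ordered by the control mean, with blue points for shGFP and orange points for shAURKB. KIF11 leads at 78.5 FPKM in the controls, and the arms separate visibly at KIF21B, KIFC2 and KIF5A.

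Promoter windows are printed for 4 called members: KIF11 and KIF4A, the mitotic pair, and KIF5B and KIF3B, the transport kinesins with the largest called rises. RefSeq windows (GRCh38.p14, 250 bases before to 50 after the RefSeq start) matched 34 of the 42 genes, with none used here for KIF21B, KIF5A or KIFC2. The KIF11 window ends before the gene start in the deposited gene table (92593286), whereas the KIF4A window holds that of KIF4A (70290090). TTTGAA, the core of the cell-cycle homology region found in many late cell-cycle genes, and CCAAT, the box bound by NF-Y, were searched on both strands, with no overlap between the motifs in the windows printed. Capitals mark these matches, written as they read on the gene's strand, so that TTCAAA and ATTGG are matches on the other strand.
KIF11 (chr10:92592880-92593179, plus strand): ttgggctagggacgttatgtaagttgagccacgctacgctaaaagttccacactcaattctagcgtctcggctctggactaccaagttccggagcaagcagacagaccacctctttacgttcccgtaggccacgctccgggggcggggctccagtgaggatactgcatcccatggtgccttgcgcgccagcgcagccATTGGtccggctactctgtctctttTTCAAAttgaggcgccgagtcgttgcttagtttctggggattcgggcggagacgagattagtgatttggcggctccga
KIF4A (chrX:70289854-70290153, plus strand): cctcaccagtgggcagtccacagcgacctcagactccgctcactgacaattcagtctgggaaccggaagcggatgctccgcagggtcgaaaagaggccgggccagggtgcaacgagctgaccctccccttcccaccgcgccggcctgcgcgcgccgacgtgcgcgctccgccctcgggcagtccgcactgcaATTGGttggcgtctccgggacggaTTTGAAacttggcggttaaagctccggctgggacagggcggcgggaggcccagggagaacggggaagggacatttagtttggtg
KIF5B (chr10:32056376-32056675, minus strand): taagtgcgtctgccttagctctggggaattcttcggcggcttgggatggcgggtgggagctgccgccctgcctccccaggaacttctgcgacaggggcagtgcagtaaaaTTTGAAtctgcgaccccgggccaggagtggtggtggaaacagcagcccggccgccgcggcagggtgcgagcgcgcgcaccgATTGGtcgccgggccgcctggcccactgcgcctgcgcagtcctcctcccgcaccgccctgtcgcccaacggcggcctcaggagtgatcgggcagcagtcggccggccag
KIF3B (chr20:32277401-32277700, plus strand): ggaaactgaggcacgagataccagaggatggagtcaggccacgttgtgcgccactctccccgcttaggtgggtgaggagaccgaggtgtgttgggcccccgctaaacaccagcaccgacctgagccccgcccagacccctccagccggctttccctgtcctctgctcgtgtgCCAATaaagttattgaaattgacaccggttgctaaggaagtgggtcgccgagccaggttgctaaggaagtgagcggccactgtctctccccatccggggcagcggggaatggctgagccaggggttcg
KIF11 and KIF4A, the called mitotic members, had both motifs at nearly the same places. Their CCAAT matches began at position 198 and 193 of the window and their TTTGAA matches at 223 and 217, counted from 1 at the 5′ end. TTTGAA read on the gene's strand in KIF4A and on the other strand in KIF11. Both motifs were also held by the uncalled mitotic members KIF14, KIF18A, KIF18B, KIF20B, KIF23, KIF4B and KIFC1. In KIF18A, for example, CCAAT began at 206 and TTTGAA at 241, so the pair of motifs was not particular to the called members. KIF11 was called lower and KIF4A higher, and any link between motifs and changes was not tested. TTTGAA was present in 10 of 15 mitotic kinesins and in 1 of 12 transport kinesins with a window, KIF5B, against 18.2% of all 27305 genes in the table. CCAAT was present in 11 of 15 mitotic and 4 of 12 transport kinesins, against 39.7% of all genes. Among the other called genes, KIF1B held CCAAT alone and KIF3C held neither. An E2F-type octamer, TTTGGCGC or TTTCCCGC, was found in 1 of 15 mitotic (KIF15), 0 of 12 transport and 1 of 7 other kinesins (KIF25). The share of all genes was 2.75%.

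Motors of the spindle poles were abundant and changed little. KIF11 (ENSG00000138160, chromosome 10, 92593286 to 92655395, plus strand) encodes Eg5, which slides the poles apart. Its library values were 359, 383 and 384 CPM in shGFP and 333, 343 and 342 CPM in shAURKB. All 3 shAURKB libraries lay below all controls, and the mean was 9.67% lower. The log2 fold change was -0.15 ± 0.04 (SE, edgeR adjusted p = 0.033). That call was lost without any 1 library other than shGFP replicate 1 (edgeR adjusted p = 0.0785 to 0.104), and with DESeq2 (adjusted p = 0.0847). KIF15, whose motor helps keep the spindle bipolar, was at 199, 216 and 204 CPM in shGFP and 188, 186 and 189 CPM in shAURKB. The arms did not overlap, but its log2 fold change of -0.14 ± 0.04 had an edgeR adjusted p of 0.0534. KIFC1, the minus-end motor that gathers microtubules at the poles, had a log2 fold change of -0.04 ± 0.03 (edgeR adjusted p = 0.409). It was at 225 to 228 CPM in shGFP and 217 to 224 CPM in shAURKB, and shares 424 exon bases with RPL12P1 on the other strand.

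Among motors that act on chromosomes, KIF4A was the called riser. KIF4A (ENSG00000090889, chromosome X, 70290090 to 70420832, plus strand) encodes a chromokinesin of chromosome arms and the central spindle, and is phosphorylated by Aurora B. It was at 105, 112 and 109 CPM in shGFP and 127, 134 and 125 CPM in shAURKB. Every shAURKB library exceeded every control. The log2 fold change was 0.24 ± 0.05 (edgeR adjusted p = 0.0156), and edgeR's adjusted p was 0.0508 without shGFP replicate 1. KIF4B, an intronless copy that shares 606 stretches of 50 bases with KIF4A (14.1% of those in KIF4A), had 36 reads in shGFP and 30 in shAURKB, against 3594 and 4143 for KIF4A. Its value is uncertain because reads of the copies can be split between them. KIF4A also overlaps PDZD11 on the other strand by 77 exon bases, and PDZD11 was not called (log2 fold change -0.10 ± 0.06, edgeR adjusted p = 0.276).

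KIF22, KIF18A and KIF18B did not pass. KIF22, the chromokinesin Kid, which shares 561 exon bases with AC009133.4 on the other strand, had a log2 fold change of 0.03 ± 0.04 and KIF18A, which limits chromosome swings at the metaphase plate, one of 0.02 ± 0.06. With upper-quartile scaling both values turned negative (-0.03 each). KIF18B, which shortens astral microtubules, was at -0.10 ± 0.04 (edgeR adjusted p = 0.0958), with 206 to 216 CPM in shGFP and 194 to 203 CPM in shAURKB, and was called with upper-quartile scaling (adjusted p = 0.0259).

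Neither KIF2C nor KIF2A, which encode microtubule depolymerases, passed. KIF2C, which encodes MCAK, an Aurora B substrate at centromeres, was at 237, 218 and 239 CPM in shGFP and 221, 213 and 221 CPM in shAURKB. Its arms overlapped, and its log2 fold change was -0.08 ± 0.05 (edgeR adjusted p = 0.232). KIF2A, used at spindle poles and in neurons, was at 170.4, 224 and 169 CPM in shGFP and 158, 198 and 153 CPM in shAURKB. Replicate 2 was the highest in each arm, and without shGFP replicate 2 the log2 fold change of -0.14 ± 0.14 became 0.00. KIF2A shares 428 exon bases with IPO11 on the same strand, so reads there cannot be told apart. KIF2B had no reads.

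None of the 4 tested motors of the central spindle and cytokinesis passed. KIF23 encodes the motor of centralspindlin, the complex that bundles midzone microtubules. Its values were 95.6, 93.1 and 83.9 CPM in shGFP and 81, 79.4 and 80.6 CPM in shAURKB. The arms did not overlap, and the log2 fold change of -0.18 ± 0.06 had an edgeR adjusted p of 0.0782, or 0.0372 without shGFP replicate 3. KIF20A, whose product MKLP2 brings Aurora B to the midzone, was at 87.7, 77.7 and 83.9 CPM in shGFP and 84.9, 91 and 102 CPM in shAURKB. Its arms overlapped, and its log2 fold change was 0.15 ± 0.08 (edgeR adjusted p = 0.213). KIF20A shares 132 exon bases with BRD8 and 68 with CDC23, both on the other strand, which had 6637 and 6365 reads over the 6 libraries. KIF20B, a motor of late cytokinesis, had a log2 fold change of -0.09 ± 0.05 and KIF14, a midbody motor, one of 0.02 ± 0.04. Neither passed, with edgeR adjusted p-values of 0.211 and 0.765. KIF14 was at -0.03 with upper-quartile scaling.

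Of 10 tested partners of the mitotic motors, listed by function, 1 rose (TPX2), 2 fell and 7 did not pass (median log2 fold change -0.01). The 30% called compares with 23.3% of all tested genes. CENPE, the kinetochore kinesin whose name falls outside the KIF rule, averaged 218 ± 9.21 CPM in shGFP and 168 ± 15.5 CPM in shAURKB (SD, n = 3). Its log2 fold change was -0.38 ± 0.07 (edgeR adjusted p = 0.0106). ECT2, the exchange factor that starts the cleavage furrow, fell by 0.31 ± 0.07 (edgeR adjusted p = 0.0202). That call was lost without shAURKB replicate 1 or 3 or shGFP replicate 2 or 3 (edgeR adjusted p = 0.0517 to 0.065). RACGAP1, the partner of KIF23, and PRC1, which recruits KIF4A to the midzone, were at -0.11 ± 0.07 and 0.06 ± 0.08 and did not pass.

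Transport kinesins held the largest kinesin changes in both directions. KIF21B (ENSG00000116852, chromosome 1, 200969390 to 201023700, minus strand) encodes a kinesin-4 motor that restrains microtubule growth in neurons and T cells. It was at 431, 426 and 403 CPM in shGFP and 256, 258 and 259 CPM in shAURKB. The shAURKB libraries were close to one another (SD 1.82 CPM) and far below every control. The drop was 38.7%, or a log2 fold change of -0.71 ± 0.04 (edgeR adjusted p = 1.55e-04), and it stayed called under all 13 alternatives, between -0.76 and -0.69. Its near relative KIF21A was barely present, with 77 reads in shGFP and 85 in shAURKB, and did not pass (log2 fold change 0.18 ± 0.26).

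KIFC2 (ENSG00000167702, chromosome 8, 144466043 to 144474202, plus strand), a minus-end kinesin described mainly in brain, was at 62.9, 57.9 and 61.7 CPM in shGFP and 33.7, 34.1 and 36.3 CPM in shAURKB. The arms were well apart. The log2 fold change of KIFC2 was -0.81 ± 0.06 (edgeR adjusted p = 5.29e-04), and -0.86 to -0.79 over the 13 alternatives, called in each. FOXH1, on the other strand, shares 791 exon bases with KIFC2 and also fell (-0.71 ± 0.17, edgeR adjusted p = 0.0244), with 349 reads in shGFP and 209 in shAURKB against 2010 and 1118 for KIFC2. The strand setting of the counting is not given in the sources used here, so reads in the shared part cannot be told apart. KIFC3, the other tested minus-end transport motor, had 32 and 42 reads. In shGFP replicate 1 alone it had 18, and its log2 fold change of 0.42 ± 0.42 was 1.05 without that library, not called either way.

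In kinesin-1, the conventional cargo motor, the heavy chain genes moved apart. KIF5B (ENSG00000170759, chromosome 10, 32009010 to 32056431, minus strand), the ubiquitous form, was at 215, 229 and 217 CPM in shGFP and 279, 282 and 286 CPM in shAURKB. All shAURKB libraries exceeded all controls. KIF5B rose by 0.36 ± 0.04 on the log2 scale, or 28.3% (edgeR adjusted p = 1.30e-03), and was called under all 13 alternatives. KIF5A (ENSG00000155980, chromosome 12, 57549998 to 57586632, plus strand), a form best known from neurons, was at 8.12, 9.61 and 9.17 CPM in shGFP and 5.52, 4.58 and 6.07 CPM in shAURKB, again with no overlap. It fell by 0.73 ± 0.15 (edgeR adjusted p = 0.0147), resting on 296 and 174 reads, and was called under all 13 alternatives. Per length KIF5B far exceeded KIF5A, at 36.6 against 1.27 FPKM in the controls and 45.4 against 0.737 FPKM in shAURKB. KIF5C, the other neuronal form, had no reads. Of the light chains that link kinesin-1 to cargo, KLC2 rose by 0.29 ± 0.05 (edgeR adjusted p = 0.0105), while KLC1, KLC3 and KLC4 (-0.02, -0.01 and -0.23) did not pass.

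Neuron markers were set beside KIF21B, KIFC2 and KIF5A because these motors are known from neurons. Of 9 listed, RBFOX3, NEFL, NEFM and STMN2 had 0 reads in every library. TUBB3, SNAP25 and MAP2 had 22, 9 and 2 reads in shGFP replicate 1, the control library that stood apart. Elsewhere TUBB3 and MAP2 had 0 reads, and SNAP25 had 1 each in shGFP replicate 2 and shAURKB replicate 1. The list's sum was 38.4 to 43.6 CPM in shGFP and 26 to 28.4 CPM in shAURKB. Most of it was SYT1, a calcium sensor of vesicle release, whose log2 fold change was -0.60 ± 0.07 (edgeR adjusted p = 1.93e-03). Of the 9, SYP was the other tested gene (0.09 ± 0.19, not called).

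**Figure D3:**
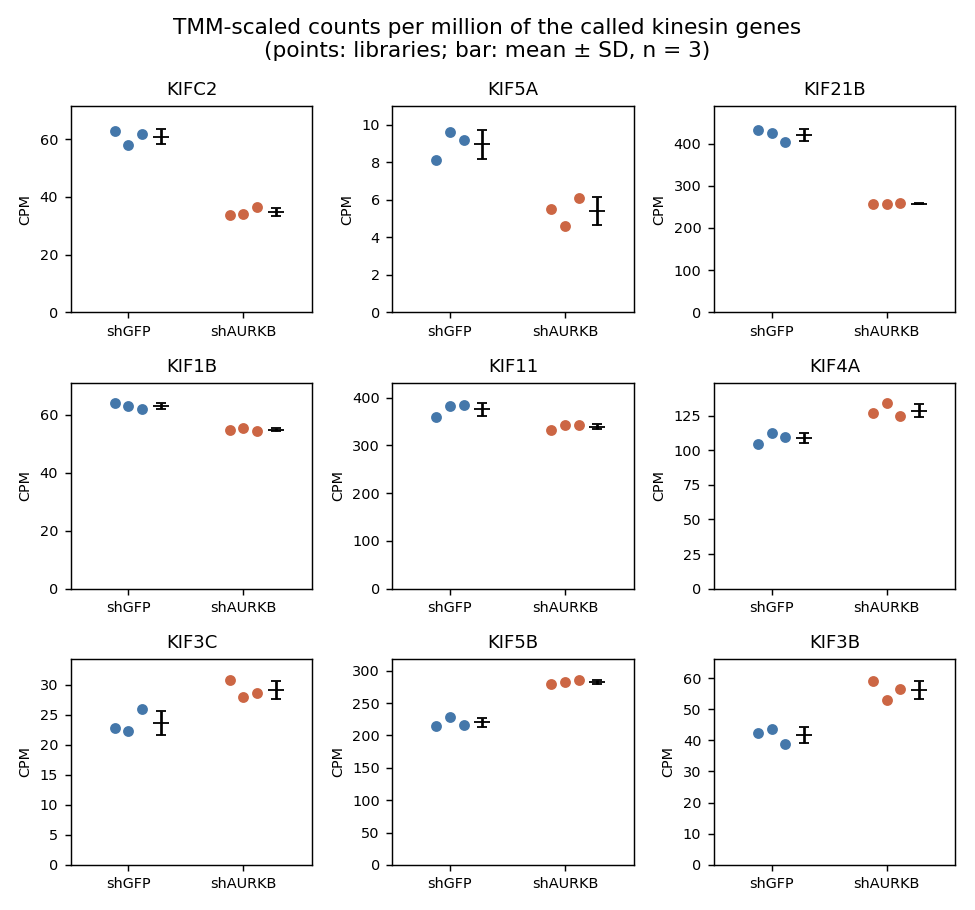
TMM-scaled CPM (vertical axis, from 0) of the 9 called kinesin genes in each shGFP (blue) and shAURKB (orange) library, with the mean and SD beside them (n = 3 per arm). No gene's arms overlap, and KIF21B shows the smallest spread among shAURKB libraries relative to its drop, from 420.4 to 258 CPM on average.

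In kinesin-2, a heterotrimeric motor of cilia and membrane cargo, KIF3B and KIF3C rose. KIF3B (ENSG00000101350, chromosome 20, 32277664 to 32335011, plus strand) was at 42.4, 43.8 and 38.9 CPM in shGFP and 59, 53 and 56.4 CPM in shAURKB. It rose by 0.43 ± 0.07 on the log2 scale, the largest called rise among the kinesins (edgeR adjusted p = 7.01e-03), and was called under all 13 alternatives. KIF3C (ENSG00000084731, chromosome 2, 25926596 to 25982749, minus strand), which replaces KIF3B in some dimers, was at 22.7, 22.2 and 25.9 CPM in shGFP and 27.9 to 30.7 CPM in shAURKB. It rose by 0.30 ± 0.09 (edgeR adjusted p = 0.0472), a call lost without any 1 library other than shGFP replicate 3 (edgeR adjusted p = 0.0751 to 0.122), with upper-quartile scaling (0.0844) and with DESeq2 (0.0968). KIF3A, the shared partner of both, was at 48.9, 46 and 40.7 CPM in shGFP and 53.1, 51.1 and 46.7 CPM in shAURKB. Its arms overlapped and its log2 fold change of 0.15 ± 0.09 did not pass (edgeR adjusted p = 0.248). KIFAP3, the accessory subunit that binds the motor pair to cargo, was at -0.23 ± 0.08 (edgeR adjusted p = 0.0831). KIF17, the homodimeric member, had 1 read.

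Of the kinesin-3 genes, whose motors move vesicles, endosomes and mitochondria, KIF1B passed. KIF1B (ENSG00000054523, chromosome 1, 10210805 to 10381603, plus strand) was at 64.1, 63.1 and 61.8 CPM in shGFP and 54.8, 55.5 and 54.2 CPM in shAURKB. The arms did not overlap. Its log2 fold change was -0.20 ± 0.05 (edgeR adjusted p = 0.0274). The call was lost without any 1 of the 6 libraries (edgeR adjusted p = 0.059 to 0.0839) and with DESeq2 (adjusted p = 0.122). KIF1C was at a log2 fold change of 0.16 ± 0.07 and KIF13B at -0.00 ± 0.06. Both missed the threshold, at an edgeR adjusted p of 0.163 and 0.974.

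Summed over the class, transport kinesins were at 978 to 1031 CPM in shGFP and 897 to 904 CPM in shAURKB. KIF21B carried the difference: without it the sums were 575 to 599 CPM in shGFP and 639 to 646 CPM in shAURKB. The sum of the mitotic kinesins was 2323 to 2376 CPM in shGFP and 2235 to 2303 CPM in shAURKB. Sums in CPM weight long mRNAs and are given as descriptions.

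Cargo adaptors and the minus-end motor dynein give the rest of the transport machinery. Of 15 tested adaptors, light chains and other partners of 19 listed, 1 rose (KLC2), 1 fell and 13 did not pass (median 0.02), so that 13.3% were called against 23.3% of all tested genes. The faller, TRAK2, which joins kinesin-1 to mitochondria, was 55.4, 55 and 53.8 CPM in shGFP and 46.4 CPM in each shAURKB library. Its log2 fold change was -0.24 ± 0.05 (edgeR adjusted p = 0.0167), with an adjusted p of 0.0527 to 0.0576 without any 1 library other than shGFP replicate 3. Of 20 tested dynein and dynactin genes, 3 rose (DYNLRB1, CAPZB and DYNC1LI1), 1 fell and 16 did not pass (median 0.12). The share called, 20%, was near the 23.3% of all tested genes. The faller, CAPZA1, encodes an actin-capping subunit that dynactin shares with the actin cytoskeleton, and fell by 0.55 ± 0.04 (edgeR adjusted p = 5.29e-04). DYNC1LI1, a dynein light intermediate chain, rose by 0.43 ± 0.11 (edgeR adjusted p = 0.0348). Its control values of 37.9, 52.1 and 45.7 CPM were widely spread, and the call was lost without any 1 library other than shGFP replicate 2 (edgeR adjusted p = 0.0502 to 0.0921).

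The other kinesins were low or not called. KIF7, a ciliary regulator of Hedgehog signalling, was at 35.9, 31.1 and 35.3 CPM in shGFP and 43, 37.2 and 42.7 CPM in shAURKB. The arms did not overlap, and the log2 fold change of 0.26 ± 0.09 did not pass (edgeR adjusted p = 0.0749). KIF7 shares 589 exon bases with TICRR on the other strand, which was at 0.02 ± 0.07. KIF24, a centriolar depolymerase, KIF27 and KIF9, both of motile cilia, had log2 fold changes of -0.15 ± 0.08, -0.27 ± 0.20 and -0.06 ± 0.25. Without shAURKB replicate 1 KIF24 was at -0.08, without shGFP replicate 2 KIF27 was at -0.06, and KIF9 changed sign without single libraries. KIF24 shares 143 exon bases with UBAP1 on the other strand. KIF27 shares 16.8% of its 50-base stretches with AL353743.4, so its reads may be split. KIF9 shares 870 exon bases with KIF9-AS1 on the other strand, which had 82 reads over the 6 libraries. KIF9 also overlaps KLHL18 on the other strand by 178 exon bases, where KLHL18 rose by 0.68 ± 0.08 (edgeR adjusted p = 2.52e-03).

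The 12 kinesin genes below the filter were 1 mitotic, 5 transport and 6 other members. KIF2B, KIF5C, KIF12, KIF19 and KIF25 had 0 reads in every library, which allows up to 0.248 to 0.293 CPM per library (3 counts, covering counting error alone). The remainder split by library. KIF1A, the synaptic vesicle motor, had 11 reads in shGFP replicate 1 and 0 elsewhere, KIF16B, an endosome motor, had 6 and 0, and KIF13A, an endosome motor too, had 16 there and 1 in shAURKB replicate 1. KIF26A (4 reads there and 1 in shAURKB replicate 2) and KIF6 (1 read) had reads in the same library, in which COL1A2, KRT8, KRT18 and KRT19 were high. Their part in these reads was not tested. KIF26B was spread over all libraries, with 7, 9 and 12 reads in shGFP and 5, 6 and 3 in shAURKB.

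**Figure D4:**
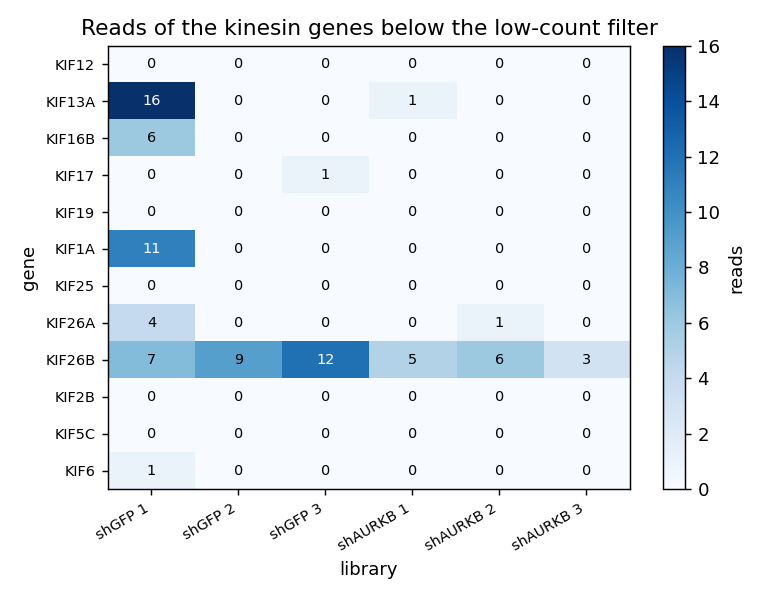
Reads (colour and number in each cell) of the 12 kinesin genes below the low-count filter (rows) in each library (columns). The shGFP replicate 1 column holds most reads of KIF13A, KIF1A and KIF16B, and KIF26B has reads in all 6 libraries.

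Across the alternatives the called kinesins fell into a stable and a fragile set. KIF21B, KIFC2, KIF5A, KIF5B and KIF3B passed under all 13, KIF4A under 12, KIF11 under 5, and KIF1B and KIF3C under 4 each. No called kinesin changed sign under any of the 13.

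**Figure D5:**
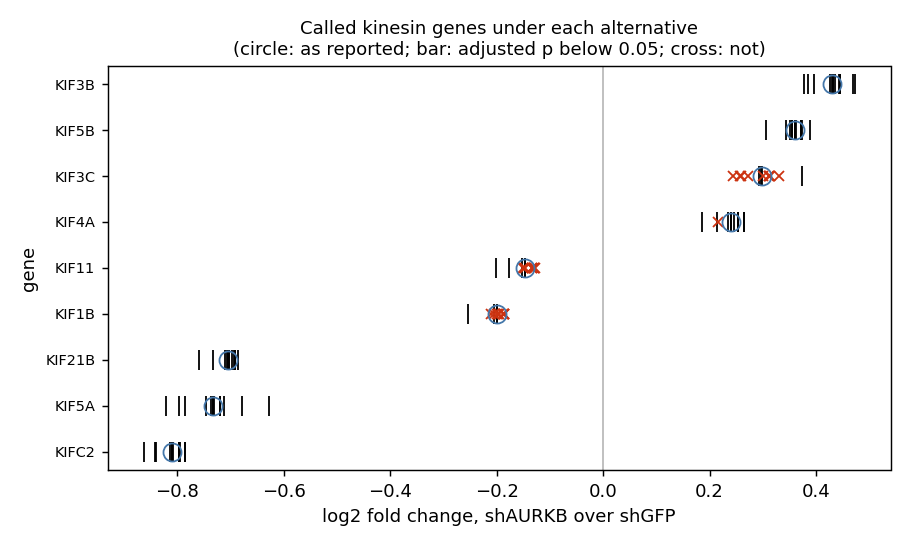
Log2 fold change (horizontal axis) of the 9 called kinesin genes (vertical axis) as reported (circle) and under each of 13 alternatives, drawn as a bar where the adjusted p was below 0.05 and a cross where it was not. KIF11, KIF1B and KIF3C lose the call most often, while KIF21B, KIFC2, KIF5A, KIF5B and KIF3B keep it in all 13.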

How the data were processed

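RNA-seq of 6 CUTLL1 cultures was used, grouped by sample title. One table with whole-number counts by Ensembl gene, and FPKM of the same genes, was deposited by the authors. HISAT2 2.0.4, StringTie 1.3.0 and edgeR on GRCh38 are named, without roles, per the submitters' processing notes. No source used here gives the strand or multi-mapping rules.

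Low genes were dropped with filterByExpr (at least 10 counts, total of at least 15), leaving 14818 genes and 99.65% to 99.80% of each library, and TMM-scaled. shAURKB was set against shGFP by quasi-likelihood F tests in edgeR 4.0.16 (R 4.3.3). Calls needed a Benjamini-Hochberg adjusted p, over every gene kept, below 0.05. Standard errors are the log2 fold change divided by the root of the F statistic. FPKM was used for levels alone, without TMM scaling. All 42 genes matched GENCODE 29 by identifier, 38 at identical positions. The test was run on simulated counts with planted changes larger than that of any tested kinesin, so changes of the size seen here were not checked. Named genes were AURKB, every tested kinesin and, from each partner list, the 2 called genes that moved most; other genes were chosen after their values were seen. Members and lists were chosen with earlier results of these data known. The 13 alternatives used DESeq2 1.42.0, voom from limma 3.58.1, RLE scaling, upper-quartile scaling, 2 other filters, a replicate block and each library left out. Replicates differed beyond sampling noise (chi-square per degree of freedom 6.33 to 7.27). The common biological coefficient of variation was 0.127.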

Additional observations from a re-analysis of the deposited data

How the results depend on the processing

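Of 480 values of 37 named genes under 13 alternatives, 414 kept their direction and side of the threshold, 45 lost the call, 5 gained it and 16 turned sign, none of them in a called gene. With upper-quartile scaling the log2 fold change turned to -0.031 for KIF18A, -0.029 for KIF22 and -0.033 for KIF14. KIF13B turned to 0.0096 with DESeq2 and 0.0089 with no filter. Leaving out single libraries turned the sign of 6 uncalled kinesins, with ranges of -0.27 to 0.0024 for KIF2A, -0.012 to 0.051 for KIF18A, -0.0058 to 0.055 for KIF22, -0.031 to 0.029 for KIF13B, -0.026 to 0.31 for KIF21A and -0.35 to 0.12 for KIF9.

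The 1 lower mitotic kinesin became 0 with DESeq2, with no filter and with the replicate block, 2 with at least 1 CPM in 3 libraries and 4 with upper-quartile scaling. Without single libraries it ranged from 0 to 1, as did the 1 higher. Transport calls stayed within 2 to 3 higher and 3 to 4 lower. The mitotic median was -0.14 with upper-quartile scaling, where that of all genes was -0.058, and -0.090 to -0.060 without single libraries. The transport median was 0.053 to 0.22 without single libraries. The cause of these shifts was not tested. Same-numbered replicates did not deviate together over the tested genes (r = -0.089, -0.031 and -0.037). Such values cannot show whether the samples were paired by design, and the main fit treated them as unpaired. Over all genes, 3456 calls became 2313 with the replicate block and 2269 to 2383 without single libraries. KIF4B, KIF21A and KIFC3 rest on few reads, so changes in them were hardly detectable at this depth.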
